A study of Mus musculus with 14 samples.

Results

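The wild-type map of RNF2 in mouse embryonic stem cells consisted of 2 chromatin immunoprecipitation sequencing (ChIP-seq) libraries, set against 1 library made with the same antibody in RNF2 knockout cells. These ChIP libraries and the knockout's input were 4 of the 14 samples in the series and were chosen by their titles. On chromosomes 1 to 19, X and Y the first wild-type library listed 4038 peaks, the second 28770 and the RNF2 knockout 0, of 83165 peaks in the 7 ChIP libraries of the series. The stem cells had a C57BL/6 background and were labelled as derived at embryonic days 3.5 to 4.5. Genotypes were wild type, RNF2 knockout and, used here only for comparison, BAP1 knockout. Every group, wild type included, had been kept for 4 days in 100 nM 4-OHT (4-hydroxytamoxifen, which activates Cre recombinase fused to an oestrogen receptor) with the caspase inhibitor emricasan at 10 µM. Which Cre transgene or allele the 4-OHT acted on, and whether a group was 1 clone or several, is not stated in the labels. Peak lists carry no expression values, so the cell type could not be checked against its markers. Nothing in the labels says that the wild-type libraries came from separate cultures, and the knockout had 1 library and no replicate.

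RNF2, also called RING1B, is the catalytic E3 ligase subunit of Polycomb repressive complex 1 (PRC1), which attaches ubiquitin to histone H2A. PRC1 is known for keeping the genes of lineage-specifying transcription factors silent in embryonic stem cells, mostly together with Polycomb repressive complex 2 (PRC2), which methylates histone H3. Canonical PRC1 contains a CBX protein that reads that methylation, whereas variant PRC1 complexes contain RYBP or YAF2 and reach chromatin through partners such as KDM2B, which binds unmethylated CpG, or MGA and E2F6, which bind DNA sequence motifs.

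The promoters below show the range over which RNF2 peaks were ordered here, from the strongest genes to genes without a peak. They are RefSeq sequences of GRCm38.p6, 5′ to 3′ on the gene's strand, from 250 bases before the transcription start to 50 after it, and capitals mark each CpG dinucleotide. Pdgfra, a growth factor receptor of primitive endoderm and mesenchyme, had the highest fold enrichment among genes with 1 listed start. Bmi1 is a PRC1 subunit gene and Ddx4 a germ cell RNA helicase gene. Gria4, a glutamate receptor subunit gene, lay among the weakest genes found in both libraries, and B2m, the light chain of MHC class I, had a peak in the second library only. Pou5f1, a pluripotency factor gene, and Olfr1, an odorant receptor gene, had no peak in either.
Pdgfra, chr5:75152001-75152300, + strand: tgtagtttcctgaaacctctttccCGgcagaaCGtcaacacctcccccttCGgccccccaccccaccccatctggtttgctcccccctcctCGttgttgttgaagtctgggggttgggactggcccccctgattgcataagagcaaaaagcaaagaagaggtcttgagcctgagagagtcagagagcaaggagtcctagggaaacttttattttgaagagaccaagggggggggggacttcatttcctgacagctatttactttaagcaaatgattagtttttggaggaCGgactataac
Bmi1, chr2:18676768-18677067, + strand: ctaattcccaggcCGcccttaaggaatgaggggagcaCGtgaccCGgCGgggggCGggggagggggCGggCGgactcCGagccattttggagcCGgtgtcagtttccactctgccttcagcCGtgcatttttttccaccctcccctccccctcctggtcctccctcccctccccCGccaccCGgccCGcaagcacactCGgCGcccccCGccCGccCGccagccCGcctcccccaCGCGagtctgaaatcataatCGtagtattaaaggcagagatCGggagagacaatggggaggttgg
Ddx4, chr13:112652261-112652560, - strand: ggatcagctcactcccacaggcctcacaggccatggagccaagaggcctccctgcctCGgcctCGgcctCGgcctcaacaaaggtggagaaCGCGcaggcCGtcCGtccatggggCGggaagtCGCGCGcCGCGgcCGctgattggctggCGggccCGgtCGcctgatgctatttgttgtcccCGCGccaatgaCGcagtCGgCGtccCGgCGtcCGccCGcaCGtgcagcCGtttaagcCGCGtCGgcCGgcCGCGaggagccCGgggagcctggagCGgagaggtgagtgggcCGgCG
Gria4, chr9:4796185-4796484, - strand: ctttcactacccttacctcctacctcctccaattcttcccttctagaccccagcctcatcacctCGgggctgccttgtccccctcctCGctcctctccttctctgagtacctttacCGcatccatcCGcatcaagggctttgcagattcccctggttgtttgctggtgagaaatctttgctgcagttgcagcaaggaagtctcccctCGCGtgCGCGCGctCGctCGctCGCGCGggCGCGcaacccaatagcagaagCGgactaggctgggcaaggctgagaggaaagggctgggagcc
B2m, chr2:122147437-122147736, + strand: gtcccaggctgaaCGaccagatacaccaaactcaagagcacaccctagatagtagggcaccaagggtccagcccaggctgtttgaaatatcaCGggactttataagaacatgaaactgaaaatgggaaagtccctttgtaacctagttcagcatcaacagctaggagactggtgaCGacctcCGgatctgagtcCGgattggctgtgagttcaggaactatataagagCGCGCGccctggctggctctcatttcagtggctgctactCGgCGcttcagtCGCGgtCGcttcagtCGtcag
Pou5f1, chr17:35505782-35506081, + strand: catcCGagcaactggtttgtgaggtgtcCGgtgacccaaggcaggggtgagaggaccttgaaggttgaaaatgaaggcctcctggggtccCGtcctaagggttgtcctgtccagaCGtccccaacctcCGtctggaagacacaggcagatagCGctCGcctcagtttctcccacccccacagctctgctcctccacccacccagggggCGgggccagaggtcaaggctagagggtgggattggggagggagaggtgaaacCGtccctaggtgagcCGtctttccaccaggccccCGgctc
Olfr1, chr11:73399446-73399745, - strand: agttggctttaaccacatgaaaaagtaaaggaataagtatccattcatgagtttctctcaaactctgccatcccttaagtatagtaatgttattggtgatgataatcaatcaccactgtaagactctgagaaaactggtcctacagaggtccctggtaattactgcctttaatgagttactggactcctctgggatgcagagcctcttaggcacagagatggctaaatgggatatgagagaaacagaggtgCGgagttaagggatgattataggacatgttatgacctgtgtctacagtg
The Pdgfra promoter held 5 CpG, that of Bmi1 23, that of Ddx4 38, that of Gria4 17, that of B2m 14, that of Pou5f1 11 and that of Olfr1 1. Fold enrichment in the first and second library was 23.31 and 17.34 at Pdgfra, 13.90 and 22.38 at Bmi1, 9.89 and 16.95 at Ddx4 and 3.32 and 11.52 at Gria4, and B2m reached 9.68 in the second library. Fold enrichment is the authors' value, the pileup of ChIP tags at a peak's summit over the local background estimated by the MACS2 peak caller, and served only to order peaks within 1 list. CpG number and strength did not follow the same order in these examples.

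The antibody control bears on whether the listed peaks depend on RNF2. The RNF2 knockout library listed 0 peaks on any chromosome or scaffold, with 119 M filtered tags against 161 M in its input. It was called with the same MACS2 version, 100 bp extension and q-value cutoff of 0.05 as the second wild-type library, which had 149 M tags against 162 M. The knockout therefore had 0.799 of the tags of the second wild-type library and 2.04 times those of the first. Its peak number was 0 against 28770. An empty list gives no signal below the cutoff, and tag density of the knockout at the wild-type peaks was not analysed here.

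A second control was BAP1 ChIP in BAP1 knockout cells, in which the target of another antibody was missing. Its 144 peaks overlapped 3 peaks of the first wild-type list (0.0743%, Wilson 95% interval 0.0253 to 0.218) and 14 of the second (0.0487%, 0.0290 to 0.0817). With a control list this short, both shares were bound to be small. Counted from the control, 6 of the 144 peaks (4.17%, 1.92 to 8.79) overlapped either wild-type list. The control had 32.5 M tags, against 58.4 M and 149 M in the wild-type libraries, and was called with a different extension. All 3 of the first list and 9 of the 14 of the second lay at the ribosomal DNA copy of chromosome 17, within chr17:39842962-39848255, where RefSeq annotates the 18S ribosomal RNA pseudogene Rn18s-rs5. Their fold enrichments were 1.24 to 1.40 in the first list and 1.28 to 2.08 in the second. These ribosomal DNA peaks stood on high tag pileup, at 73.6% or more of the highest that the calling allowed, and at the bottom of their lists. The other 5 of the second list were at fold enrichments of 1.30 in Sfi1, 2.38 in Cmss1 and Filip1l, 1.45 in Cdk8, 1.87 in the noncoding gene Gm15564 and 6.57 at chr8:123575482-123575673, which was among the strongest 7193 of that list. The RNF2 knockout list was empty, so it could hold no peak at these sites.

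Peak width differed between the wild-type libraries. The median was 876.5 bp in the first (quartiles 476 and 1693.8 bp) and 280 bp in the second (150 and 840.8 bp). Their mean was 578 ± 422 bp (SD, n = 2), so that the spread between libraries was large beside the mean. The first library had 58.4 M tags and an estimated fragment length of 297 bp, and the second 149 M tags and a fixed extension of 100 bp. A peak cannot be narrower than that length, at which 46 peaks of the first list and 744 of the second lay. Depth, MACS2 version and extension changed together between the libraries and cannot be told apart.

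In each list a small class of wide peaks made up a large part of the occupied length. Peaks of 5 kb or more numbered 245 in the first library (6.07%, 5.37 to 6.85) and held 37.4% of its 6.93 Mb. In the second they numbered 546 (1.90%, 1.75 to 2.06) and held 24.6% of its 24.5 Mb. At the narrow end, 1101 peaks of the first list (27.3%) and 18513 of the second (64.3%) were under 500 bp, with 6.11% and 15.8% of the length. Wider peaks were stronger within each list, with a Spearman coefficient between width and fold enrichment of 0.80 over 4038 peaks and 0.77 over 28770, a description across peaks of 1 library that share its depth and threshold.

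**Figure D1:**
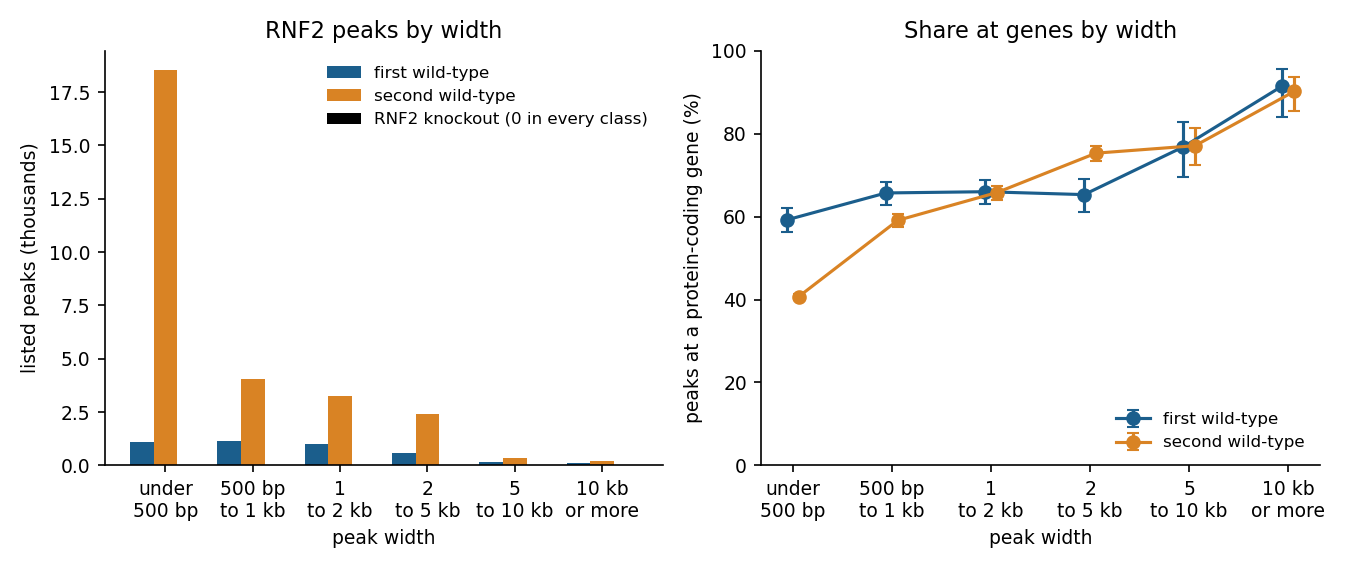
Left, number of RNF2 peaks in 6 width classes in the first and second wild-type library and in the RNF2 knockout, which has 0 in every class. Right, share of the peaks of each class (%) that overlap a window at a protein-coding gene, with Wilson 95% intervals. Windows reach 1 kb on each side of the gene's start, or of both gene ends where no start is listed. The second library has 18513 peaks under 500 bp, and the share at genes reaches 91.5% and 90.2% among peaks of 10 kb or more.

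The widest peaks lay over clusters of homeobox genes, which pattern the body axis and its organs. In the first library these were the Hoxb cluster (60.7 kb, chr11:96274150-96334888, GRCm38), Hoxa (50.8 kb, chr6:52191526-52242286), Hoxd (40.7 kb, chr2:74664601-74705274) and Hoxc (39.5 kb, chr15:102948469-102988005). A peak of 31.8 kb lay over Skida1 and Mllt10. In the second library the 4 Hox clusters again came first, as single peaks of 123 kb (Hoxa), 115 kb (Hoxc), 107 kb (Hoxb) and 65.3 kb (Hoxd). They were followed by Nr2f2 (49.7 kb), an orphan nuclear receptor gene, and by the neighbours Zic1 and Zic4 (42.1 kb), zinc-finger factor genes of the cerebellum and neural crest. The first library split several of these domains: its list had 12 peaks within the second library's Hoxa peak, 17 within Hoxc, 11 within Hoxb, 5 within Hoxd, 8 within Nr2f2 and 7 within the Zic peak.

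Windows of 1 kb on each side of a gene's transcription start were used to assign peaks to genes. RefSeq starts were at hand for 17492 of 21779 protein-coding genes, and both gene ends were used for the other 4287. Of the peaks of 10 kb or more, 86 of 94 (91.5%, 84.1 to 95.6) in the first library and 185 of 205 (90.2%, 85.4 to 93.6) in the second lay at such a window. The share under 500 bp was 59.2% (56.3 to 62.1) and 40.7% (40.0 to 41.4). A longer peak also meets more windows. The 113 genes at the widest class of the first library included 69 members (61.1%) of 9 lists of developmental transcription factors, which made up 1.09% of all protein-coding genes. Most others in that class were also transcription factor genes outside the lists, among them Barhl2, En1, Evx2, Lbx1, Msx1, Pdx1 and Wt1, which were picked from it after their values were seen. For the second library the count was 116 of 233 genes (49.8%).

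The gene count rested on the first library. At their windows, 2486 protein-coding genes (11.4% of 21779) had a peak in both wild-type libraries, and these were all the genes of the first. The second library had a peak at 10897 genes (50.0%), of which 8411 (38.6%) were its own. The 2486 genes were ranked by fold enrichment in the first library and divided into 4 tiers of equal size. Tier 1, the strongest, held 622 genes (2.86%) at 6.87 to 25.69, tier 2 spanned 4.41 to 6.86, tier 3 spanned 3.32 to 4.41 and tier 4 spanned 1.86 to 3.32. Width fell along the same order, with medians of 3404, 1240, 683 and 453 bp in the first library and 6160, 3034, 2324 and 2025 bp in the second. Fold enrichment in the second library, which was not used for the ranking, had medians of 18.13, 17.16, 13.52 and 10.87 from tier 1 to tier 4, against 3.67 at the 8411 genes of that library alone. Its first 2 medians thus differed far less than the 10.29 and 5.38 of the first library.

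**Figure D2:**
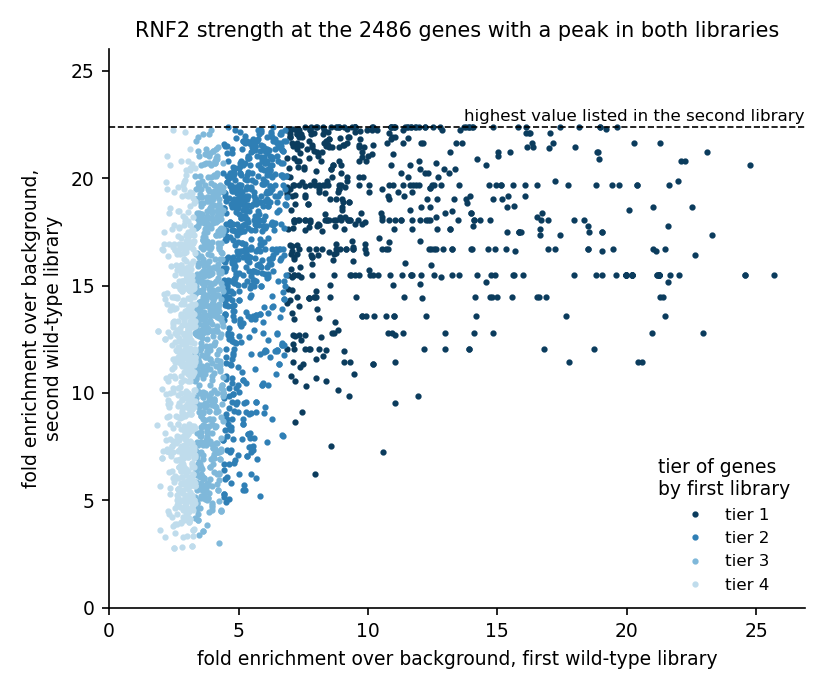
Fold enrichment of the strongest RNF2 peak at each of 2486 genes in the first wild-type library (x axis) and in the second (y axis), coloured by tier in the first library. Dashed line, the highest fold enrichment listed in the second library, 22.38. Points of tier 1 spread from 6.87 to 25.69 on the x axis and line up on shared values on the y axis.

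That difference ran along with a ceiling in the second library. MACS2 kept 1 tag per position and strand, per the file headers, so a pileup cannot exceed 2 tags per base of extension, which is 200 tags in the second library and 426 in the first after scaling to its input. In the second library 1011 peaks reached 95% of the ceiling, with fold enrichments of 1.28 to 22.38, and its 100 strongest peaks stood at 99.0% to 100% of it. The 100 strongest of the first library stood at 28.8% to 70.7% (median 41.5%), and 1 peak of that list, at the ribosomal DNA, passed 95%. The second-library peaks at the ceiling overlapped 1576 peaks of the first, at 1.24 (ribosomal DNA) to 25.69, with a median of 6.69 over overlapping pairs. A wide second-library peak can hold several first-library peaks, so this range includes weaker parts of 1 domain and is not one of separate sites. The second library also had more ties. Its 1000 strongest peaks took 213 distinct values of fold enrichment, with 62 peaks at 22.38, and those of the first took 573. The order of the strongest sites was therefore taken from the first library.

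Agreement between the libraries was nearly complete in one direction. Of the 4038 peaks of the first list, 4037 overlapped a peak of the second by at least 1 bp, and 4030 had their summit inside one. The exception was a 328 bp peak of fold enrichment 3.03 at chr6:49216564-49216891, 1095 bp from Igf2bp3, an RNA-binding protein gene. In the other direction 3226 of 28770 peaks (11.2%, 10.9 to 11.6) overlapped the first list. The shared sites were the second library's strong and wide ones: their median fold enrichment was 15.17 and their median width 2763 bp, against 3.05 and 236 bp for the 25544 that were not shared. By width, the share found in the first list climbed from 0.286% under 500 bp through 21.2% at 1 to 2 kb and 73.3% at 2 to 5 kb to 100% of 205 peaks at 10 kb or more.

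Within the shared sites the libraries placed summits close together and differed in extent and rank. The median distance between summits was 162 bp over 4078 overlapping pairs. In 99.3% of first-list peaks with a partner, the partner was wider, by a median of 3.06 times, and 553 second-list peaks held 2 or more peaks of the first list, up to 17. Spearman coefficients over the pairs were 0.43 for fold enrichment and 0.53 for width, given as a description since pairs can share a peak. When both lists were cut to their strongest peaks, 8 of the first 100 of each library overlapped. Among the first 1000 the overlap was 590 (59.0%) of the first library and 511 (51.1%) of the second, and at 4038 it was 3584 (88.8%) and 2766 (68.5%). The low overlap at the very top coincides with the tied values of the second library, and their part in it was not tested.

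Strength went with position relative to genes, by a margin that differed between libraries. Peaks were also divided into 4 equal tiers within each list by fold enrichment, called peak tiers. Peaks at a gene window made up 71.2%, 68.1%, 60.7% and 59.9% in the first library from strongest to weakest. In the second they made up 68.6%, 50.9%, 40.8% and 38.9%. The difference between peak tiers 1 and 4 was 11.3 percentage points in the first and 29.7 in the second, 20.5 ± 13.0 (SD, n = 2). With the peak summit, in place of any base, required inside the window the mean difference was 7.22. Weak peaks of the second library outside gene windows lay in gene bodies (30.9% of peak tier 4) and outside protein-coding genes (30.2%) at like shares.

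Genes of tier 1 were led by developmental regulators. They included Tal1 at 25.69 (6529 bp wide in the first library), a basic helix-loop-helix factor of blood formation, Prdm6 at 24.75, a PR-domain factor of smooth muscle, Hoxb2 and Hoxb3 at 24.59 under 1 shared peak, Pdgfra at 23.31 and Ebf3 at 22.93, a factor of neuronal development. Fold enrichment of these in the second library was 15.50, 20.62, 15.50, 17.34 and 12.78. The second library did not repeat the order among them. The 622 genes lay under 576 separate peaks of the first library, since neighbours can share one. Of these genes, 160 (25.7%, 22.4 to 29.3) belonged to the developmental factor lists, which hold 237 genes or 1.09% of all. In tiers 2, 3 and 4 the lists had 10, 7 and 7 members (1.61%, 1.13% and 1.13%), close to their share of all genes, and 36 among the genes of the second library only.

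Most transcription factor families had their members in the top class or outside the shared genes, with few in between. Of 39 Hox cluster genes, 38 had a peak in both libraries under 17 separate first-library peaks, 37 of them in tier 1. At its windows Hoxd4 had a peak in the second library only, at 16.81. A first-library peak of 5310 bp at 13.14 covered the Mir10b hairpin inside Hoxd4 but did not reach those windows. Of 9 Pax genes, 8 were in tier 1, with a median width of 14021 bp, led by Pax7 at 22.65 and Pax6 at 16.74, regulators of muscle stem cells and of eye and forebrain, and Pax4 had no peak. Of 6 Gata genes, 5 were in tier 1, led by Gata6 at 22.26 and Gata3 at 20.43, factors of endoderm and of T cells and trophoblast, whereas Gata1, the erythroid factor, had none. Among 32 Dlx, Irx and paired-like genes 27 were in tier 1, among 32 LIM, Nkx and sine oculis homeobox genes 25, among 44 forkhead genes 21, among 19 Sox genes 10 and among 16 T-box genes 9. Examples were Pitx1 at 22.09, Six3 at 19.45, Foxb2 at 21.60, Sox6 at 22.00 and Tbr1 at 21.01. Of the other forkhead genes, 16 had a peak in the second library only, among them Foxo1, Foxk1, Foxa3 and Foxh1, and 5 had none, among them Foxp3 and Foxn1. Basic helix-loop-helix genes were spread more widely, with 18, 3, 2 and 4 of 40 in tiers 1 to 4.

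Genes of secreted signals were spread over the tiers. A peak in both libraries lay at 17 of 19 Wnt genes, with 6, 5, 3 and 3 in tiers 1 to 4, led by Wnt5a at 15.02 and Wnt10b at 12.65. Fgf ligand genes had 13 of 22, led by Fgf9 at 15.48, a ligand of lung and gonad development, and Fgf16 at 12.78. Bmp, Gdf and Nodal ligand genes had 12 of 29, led by Bmp6 at 12.12 and Gdf6 at 10.55, with Nodal itself at none and Lefty1 and Lefty2, its antagonists, in the second library only. In the hedgehog pathway the ligand genes Ihh at 12.01 and Shh at 8.50 and the co-receptor gene Boc at 7.18 were in tier 1. The receptor gene Ptch1 and the effectors Gli1 and Gli3 had a peak in the second library only, and Gli2 lay in tier 3. Median widths in the first library were 1742 bp for Wnt, 2067 bp for Fgf and 1672 bp for Bmp genes, below those of the homeobox lists.

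Genes of nerve cell wiring and excitability were spread over all 4 tiers. Of 67 axon guidance genes, 30 had a peak in both libraries, with 4, 13, 10 and 3 from tier 1 to tier 4, led by the attractant gene Ntn1 at 10.71 and the receptor gene Plxnd1 at 10.21. Potassium channel genes had 37 of 92 (11, 7, 10 and 9), led by Kcna1 at 13.48, and glutamate and GABA receptor genes 23 of 47 (3, 9, 3 and 8), led by Grm8 at 10.15. Collagen genes had 12 of 44, led by Col12a1 at 12.26. Each of these 4 lists stood above the 11.4% of all genes with a peak in both libraries. Clustered protocadherin genes, cell adhesion genes in tandem arrays on chromosome 18, had 13 of 57 in both and 32 more in the second library only. None has a listed start, so both ends were used for all of them, and neighbours lie close together.

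Genes of PRC1 were frequent in the shared map, at 40.7%, and those of PRC2 were in it at 15.4%, near the 11.4% of all genes. In the second library 96.3% and 76.9% of them had a peak, against 50.0% of all genes. Of 27 PRC1 subunit genes, 11 had a peak in both libraries and 15 more in the second only. Among the strongest were Bmi1 at 13.90 and 22.38, a ring-finger partner of RNF2, Cbx8 at 10.58 and 7.26, a chromodomain subunit, and E2f6 at 9.27 and 9.86, a variant PRC1 factor. Cbx8 lay under a wide peak of 25651 bp in the first library, and Cbx2, on the same chromosome, was at 3.08 and 8.56. Bcorl1 at 7.06 and Bcor at 6.97, scaffold genes of a variant complex, lay in tier 1 too. Kdm2b, at 1.86 in the first library and 8.49 in the second, had the lowest first-library fold enrichment of the genes found in both, and in the second library, where the lowest was 2.78, it did not. Rnf2 itself had a peak in the second library only, at 4.01, as had Ring1, its paralogue, at 3.23. Yaf2 reached 16.48 in the second library without a peak in the first. That value lies in the second-library range of every tier and below the tier 1 median of 18.13. Of 13 PRC2 genes, Ezh2 (3.77 and 3.85) and Phf19 (3.01 and 15.83) had a peak in both, 8 had one in the second only, among them Eed at 2.88 and Suz12 at 5.57, and Mtf2, Phf1 and Rbbp7 had none.

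Germ cell genes in the upper 2 tiers had a lower median peak width than all genes of the same tier. Of 27 genes of meiosis and the piRNA pathway, 19 had a peak in both libraries, 6 in tier 1 and 9 in tier 2. They were led by Zcwpw1 at 10.20, a meiotic histone reader gene, Ddx4 at 9.89 and Mael at 7.44, a piRNA pathway gene. Their widths in the first library were 823, 1112 and 787 bp, and the list's median was 879 bp. The median was 970 bp for the 6 in tier 1, where all 622 genes had 3404 bp, and 907 bp for the 9 in tier 2, where all 621 genes had 1240 bp. In tiers 3 and 4, with 2 list members each, it was 758 and 372 bp, against 683 and 453 bp for all genes. Zcwpw1, Ddx4 and Mael stood below the median first-library fold enrichment of tier 1, 10.29. Widths were not compared at equal fold enrichment. Tdrd6, a gene of the same pathway, reached 22.26 in the second library without a peak in the first.

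Genes of the extra-embryonic lineages were frequent in tier 1, which held 2.86% of all genes, and pluripotency genes were in the shared map at 15.0%, near the 11.4% of all genes. Of 14 trophoblast genes, 8 were in tier 1, among them Tfap2a at 20.97, Eomes at 16.52 and Hand1 at 14.07, and Elf5 and Plac1 had none. Of 14 primitive endoderm genes, 10 had a peak in both libraries, led by Pdgfra, Gata6 and Sox17 (17.74), an endoderm HMG-box factor gene. Among 20 pluripotency genes Pou5f1, Nanog, Zfp42, Tdgf1, Dppa4, Dppa5a and Tfcp2l1 had no peak in either library, 7 genes where 10882 of all 21779 had none. Tbx3 at 8.85, Esrrb at 8.62 and Prdm14 at 4.73 had one in both, and Sox2, Klf4 and 8 others had one in the second only. Of 12 fibroblast genes, markers of cells that can serve as feeders for stem cells, Thy1 at 3.36 and Vim at 3.87 had a peak in both. That share of 16.7% was near the 11.4% of all genes. Another 4, Col1a1, Col1a2, Fn1 and Pdgfrb, had a peak in the second library only. The other 6, Acta2, Col3a1, Dcn, Lum, S100a4 and Postn, had none. Cyclin-dependent kinase inhibitor genes, which arrest the cell cycle, had 4 of 7 in both, with Cdkn2c at 12.15, Cdkn2a at 9.51, Cdkn1c at 8.23 and Cdkn2b at 5.94.

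Genes active in most cells were rare in the shared map and had peaks of the second library at shares on both sides of the 50.0% of all genes. None of 19 housekeeping or 25 replication and cell cycle genes had a peak in both, but 12 (63.2%) and 13 (52.0%) had one in the second. Cytosolic ribosomal protein genes had 2 of 85 in both, Rps20 at 4.53 and Rpl10l at 3.55, and 32 (37.6%) in the second. Mitochondrial ribosomal protein genes had 1 of 77 in both and 44.2% in the second, Nduf genes of respiratory complex I 1 of 49 and 28.6%, histone genes 3 of 84 and 45.2%, and keratin genes 1 of 49 and 24.5%. Olfactory receptor genes had 0 of 1109 in both and 6 (0.541%) in the second library, and vomeronasal receptor genes had 0 of 352 in either.

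Around starts the peaks leaned to the transcribed side. This used genes with 1 listed start, 354 to 370 a tier. In the first library the summit lay downstream of the start in 79.7% (75.2 to 83.5), 79.2%, 76.2% and 71.1% (66.3 to 75.5) of genes from tier 1 to tier 4, and in the second in 80.8%, 79.7%, 77.3% and 76.2%. The genes of the second library only had 70.9% (69.7 to 72.1) of 5238. The median summit lay 582 bp downstream in tier 1 and 289, 207 and 171.5 bp in the others in the first library. Spread was wider downstream as well. In tier 1, 58.5% of genes were under a peak at 2 kb downstream and 35.9% at 2 kb upstream in the first library, and 88.1% against 57.6% in the second. At 5 kb the first library still covered 24.9% downstream and 19.5% upstream of these genes, against 1.64% and 0.548% in tier 2.

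**Figure D3:**
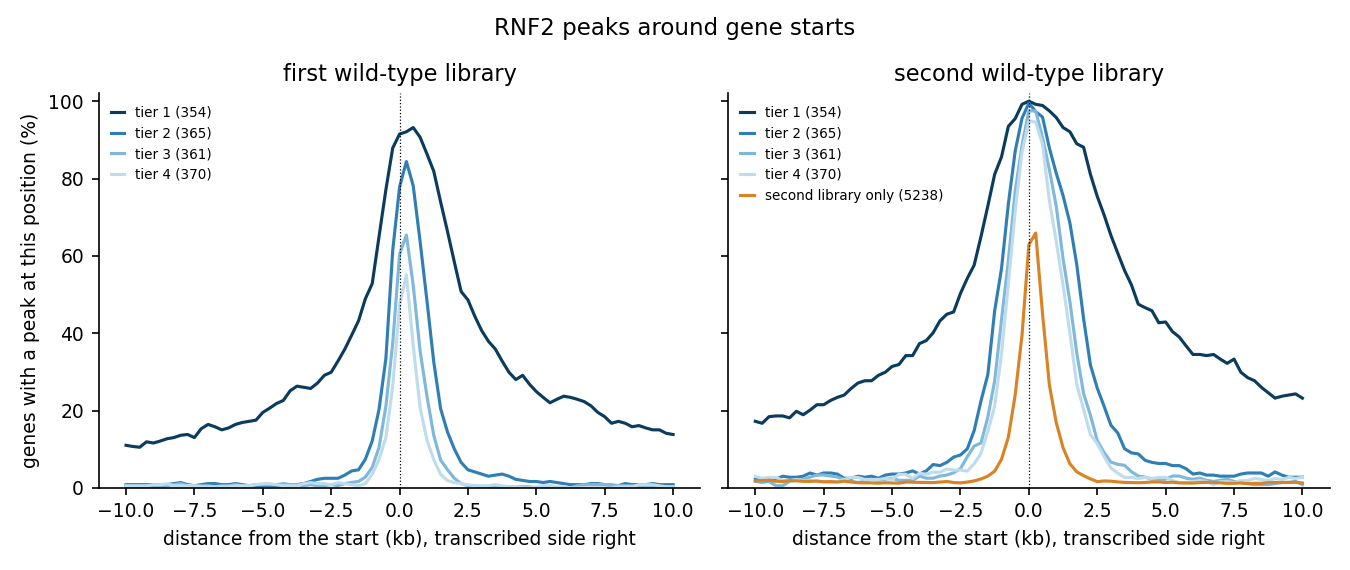
Share of genes (%) with an RNF2 peak at each distance (kb) from the transcription start, positive on the transcribed side, in the first (left) and second (right) wild-type library, by class, with the number of genes with 1 listed start in parentheses. Tier 1 has long shoulders, higher on the transcribed side (58.5% at 2 kb downstream against 35.9% upstream in the first library), and the other classes fall to near 0 within a few kb.

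CpG content went with the presence of RNF2 and hardly with its strength. Promoters of 300 bases held a median of 21, 24, 22 and 24 CpG in tiers 1 to 4, 22 in genes of the second library only and 4 in genes with no peak. The share with 10 or more CpG was 84.3%, 87.8%, 87.2%, 90.4% and 86.3% in these first 5 classes and 29.0% in the last, of 57.2% among all 17492 promoters. Read the other way, a peak in the second library was found at 6.92% of 5101 genes with 0 to 4 CpG, 33.5% of 2393 with 5 to 9, 64.1% of 3685 with 10 to 19, 74.2% of 3708 with 20 to 29 and 88.3% of 2605 with 30 or more. A peak in both libraries was found at 1.27%, 7.02%, 13.9%, 16.0% and 20.0% of the same groups. Pdgfra, at the top of the map with 5 CpG, shows that single promoters can lie far from the class median.

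**Figure D4:**
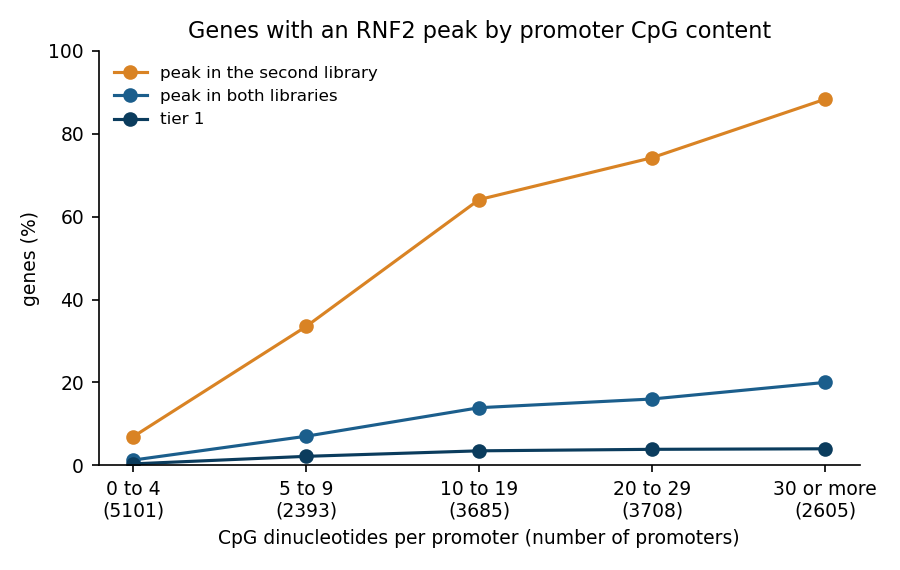
Share of genes (%) with an RNF2 peak in the second wild-type library, in both libraries, and in tier 1, by the number of CpG dinucleotides in the promoter (number of promoters in parentheses). The share in the second library climbs from 6.92% to 88.3%, that in both from 1.27% to 20.0%, and that in tier 1 from 0.353% to 3.99%.

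Of the DNA motifs searched on both strands, CACGTG was frequent in the lists of germ cell and PRC1 genes. The E-box CACGTG, bound by MGA with MAX among other factors and the same on both strands, lay in 13 of 24 germ cell promoters (54.2%) and 7 of 21 PRC1 promoters (33.3%), against 7.90% of all promoters. The Bmi1 and Ddx4 promoters above each hold 1. By strength class its share was 12.1%, 13.7%, 12.4% and 9.34% from tier 1 to tier 4, 10.8% in genes of the second library only and 4.92% without a peak. The E2F-type motif TTCCCGCC was present in 2.91% (1.71 to 4.92), 3.37%, 5.76% and 6.37% (4.50 to 8.95) of tiers 1 to 4 and in 2.89% of all, and the Ddx4 promoter holds 1. Both motifs contain CG, so their shares move with CpG number, and a match is a description of letters only.

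Recurrence in other RNF2 libraries followed the same order of strength. The BAP1 knockout cells lack the deubiquitinase that removes the mark PRC1 sets, and their first and second libraries were called with the same MACS2 versions as the first and second wild-type libraries. Of the first wild-type list, 95.7% (95.1 to 96.3) overlapped a peak of the first BAP1 knockout list, from 100% in peak tier 1 to 91.9% (90.0 to 93.4) in peak tier 4. Of the second list, 86.3% (85.9 to 86.7) overlapped the second BAP1 knockout list, with 99.9%, 92.7%, 79.1% and 73.7% from peak tier 1 to peak tier 4. The 25544 peaks of the second library that the first did not list recurred in 84.6% (84.1 to 85.0) in the second BAP1 knockout library, but in 18.5% in the first, which had 54.1 M tags. At gene level, 8112 of the 8411 genes of the second library only (96.4%) had a peak in the second BAP1 knockout library. Among genes without a wild-type peak the share was 19.3% (2100 of 10882). Longer lists overlap more, so these shares describe the lists and not the genotypes.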

How the data were processed

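Reads of 50 bp were aligned by GSNAP, with GRCm38 (mm10) as the build, per the submitters' processing notes. MACS2 called each library on its own with its input as control (q-value cutoff 0.05, per the file headers), with version 2.1.0.20150420 for the first wild-type library and 2.1.1.20160309 for the second and the RNF2 knockout. The deposited lists give pileup (signal), fold enrichment (ratio) and −log10 of p and q; replicates were not pooled. Redundant tags were 0% of the first, 25.0% of the second and 32.0% of the knockout library per the file headers. Tags in M set the depth. Here only chromosomes 1 to 19, X and Y were used, and gene windows came from RefSeq starts, a change from gene ends made with the tables at hand. A gene took its strongest overlapping peak. Wilson intervals cover counting error over peaks or genes only. Named genes were the 6 strongest loci of each tier and of the second library only, up to 3 per list, and all Polycomb and kinase inhibitor genes; others were chosen after their values were seen, and a few are not reported here. Members and the 35 lists were chosen with earlier results of these data known. Overlap functions were tested on simulated data. Python 3.11.15, pandas 2.3.3, numpy 2.4.6 and scipy 1.17.1 were used. No test between groups was made, since wild type had 2 libraries and the knockout 1.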

Additional observations from a re-analysis of the deposited data

Results flagged for a closer look

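Outside chromosomes 1 to 19, X and Y, which the comparisons did not use, the second wild-type library listed 7 peaks, against 0 in the RNF2 knockout library called with the same settings. The first wild-type library listed 1 there.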

How the results depend on the processing

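The lists depend on the threshold. When −log10 q had to reach 5, the second wild-type library had 17395 peaks, and when it had to reach 10 it had 9686, the first 2158, and 1497 genes had a peak in both. The share of second-list peaks in the first list was 15.7% and 19.4% at these thresholds, 68.5% with lists of equal length, 4.13% with 50% of the peak covered and 10.2% by summit. That of first-list peaks in the second was 88.8%, 99.8% and 99.8% under the last 3 settings. Mean median width was 1431 bp at −log10 q of at least 10 and 1689 bp with equal lengths, and ranged from 280 to 876 bp leaving out a library. The gene count ranged from 2486 to 10897 leaving out a library, so the second library alone sets the higher count. The difference between strength tiers 1 and 4 was 7.22 percentage points by summit and 11.3 to 29.7 leaving out a library. Recurrence in BAP1 knockout was 94.9% with 50% covered, 96.5% and 98.0% at the 2 thresholds for the first libraries, and 80.6%, 90.6% and 95.9% for the second. Where no construction shows it, the cause was not tested. Genes with a listed start alone gave 1861 and both ends of every gene 2421, 2287 of them shared, 2 settings chosen after seeing the data. Of 150 named genes, 97 kept their number of libraries when the summit had to lie in the window, 116 with equal lengths and 120 at −log10 q of at least 10. No paired analysis was possible because only wild type had 2 RNF2 libraries in the comparison with the RNF2 knockout. For the weak peaks that the second library alone listed, depth and calling settings cannot be told apart.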

Other observations

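MicroRNA genes were counted where the hairpin itself lay under a peak, a narrower rule than the windows used for protein-coding genes. Of 1005 hairpins with a RefSeq entry, 29 (2.89%) lay under a peak of the first library and 96 (9.55%) under one of the second. The strongest belonged to the Hox clusters: Mir196b at fold enrichments of 21.24 and 15.50 in the first and second library, Mir10a at 20.19 and 15.50, Mir196a-2 at 15.84 and 17.48 and Mir10b at 13.14 and 16.81. Each lay under a peak of its Hox cluster. The brain microRNA miR-9 is encoded at 3 loci, and all 3 had a peak in both libraries, Mir9-1 at 8.84 and 16.68, Mir9-3 at 8.26 and 19.69 and Mir9-2 at 3.35 and 14.36. Mature sequences from RefSeq, 5′ to 3′ with the seed (bases 2 to 8) in capitals, show that these hairpins fall into 3 seed families, miR-10 with ACCCUGU, miR-196 with AGGUAGU and miR-9 with CUUUGGU.
miR-10a-5p: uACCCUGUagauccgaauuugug
miR-10b-5p: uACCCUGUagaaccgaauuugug
miR-196a-5p: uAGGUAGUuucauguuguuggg
miR-196b-5p: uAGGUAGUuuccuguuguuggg
miR-9-5p: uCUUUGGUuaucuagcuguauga
Outside the Hox clusters, hairpins in both libraries included Mir129-2 (5.94 and 19.94), Mir375 (5.60 and 14.96), an islet microRNA, Mir34b (4.40 and 14.36), a target of p53, and Mir203 (3.90 and 17.63), a skin microRNA.

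Chromosome X had listed RNF2 peaks at a smaller share of its genes than the autosomes. A peak in both libraries lay at 61 of its 963 protein-coding genes (6.33%), against 7.56% to 16.4% on each autosome, and a peak in the second library at 21.0%, against 37.8% to 63.6%. The 16.4% was chromosome 18, where none of the 511 genes had a listed start and both gene ends were used. The number of X copies in the cells and mappability were not examined. Among promoters with 10 or more CpG the shares were 11.4% (8.51 to 15.1) of 360 on X and 16.5% (15.8 to 17.2) of 9631 on autosomes in both libraries, and 34.2% (29.5 to 39.2) against 75.7% (74.8 to 76.5) in the second. Fgf16 at 12.78 and 22.38, Bcor and Bcorl1 were among the strong genes of X. The 256 genes of chromosome Y had none.

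Transfer RNA genes had a peak within 1 kb at 15 of 403 (3.72%) in the first library and 121 (30.0%) in the second. For long noncoding RNA genes, which often share a promoter region with a coding gene, the shares were 5.06% and 18.7% of 12639.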
